A study of Mus musculus with 36 samples.

Results

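The renin-angiotensin system was described here by 9 genes, picked out by symbol from the 53715 genes counted in each library: Agt, Ren1, Atp6ap2, Ace, Agtr1a, Agtr1b, Mme, Enpep and Anpep. Their messenger RNA was read in the kidneys of 36 mice, which formed 4 groups of 9. All mice carried floxed Bmal1 alleles (Bmal1 lox/lox; Bmal1, the gene listed as Arntl, codes for a core activator of the circadian clock) and drank doxycycline at 2 mg/ml for 2 weeks from 8 weeks of age. The cKOt mice also carried Pax8-rtTA and LC1, by which doxycycline switches on Cre recombinase in the renal tubule, and the control mice were littermates with the floxed alleles alone. From 1 week after doxycycline, mice were injected with streptozotocin (STZ), a toxin of the insulin-producing cells that gives type 1 diabetes, at 50 mg/kg daily for 5 days, or with phosphate-buffered saline (PBS). Whole kidneys were collected at zeitgeber time 9, counted in hours from lights on, 8 weeks after the injections ended. The control groups are called PBS-control and STZ-control and the deleted groups PBS-cKOt and STZ-cKOt. Strain and sex were not given in the sources used. The Pax8 promoter is active in tubule epithelium, whereas renin is made by cells of the afferent arteriole, and ACE also by endothelium, cells outside the tubule.

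In this hormone system renin cuts angiotensinogen, the product of Agt, to angiotensin I, and angiotensin-converting enzyme (Ace) turns that into angiotensin II. Angiotensin II acts through type 1 receptors (Agtr1a, Agtr1b) to constrict vessels and retain sodium, and peptidases of the tubular brush border trim or inactivate the peptides. The kidney holds all of these parts, and the proximal tubule makes angiotensinogen of its own beside that delivered from the liver.

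Agt RNA was higher in cKOt than in control kidneys with either treatment, by 2.33-fold in PBS mice and 1.65-fold in STZ mice, and it was 1.37-fold higher in STZ-control than in PBS-control kidneys. Ace RNA went the other way: it was lower in cKOt kidneys and lower after STZ, so that STZ-cKOt kidneys held 2.33-fold less of it than PBS-control kidneys. Atp6ap2 was 1.15- and 1.21-fold higher in cKOt kidneys of PBS and STZ mice. Differences in Ren1, Agtr1a, Mme, Enpep and Anpep did not pass the threshold between genotypes or between treatments, and Agtr1b was nearly absent.

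The upstream sequences of the 3 members that differed by genotype in both treatments are shown because their RNA moved in different directions. They are the 250 bases before each transcript start in RefSeq, GRCm38.p6, read 5′ to 3′ on the gene's strand. Ace has a start inside the gene as well as the one at its 5′ end. Agt lies at chr8:124569707-124569956 on the minus strand, the 5′ Ace start at chr11:105967698-105967947 (plus), the internal Ace start at chr11:105974939-105975188 (plus) and Atp6ap2 at chrX:12587509-12587758 (plus). Capitals mark a TATAAA box on either strand in the Agt and 5′ Ace sequences, AGGTCA in the internal Ace sequence and TGTTCT in Atp6ap2.
Agt: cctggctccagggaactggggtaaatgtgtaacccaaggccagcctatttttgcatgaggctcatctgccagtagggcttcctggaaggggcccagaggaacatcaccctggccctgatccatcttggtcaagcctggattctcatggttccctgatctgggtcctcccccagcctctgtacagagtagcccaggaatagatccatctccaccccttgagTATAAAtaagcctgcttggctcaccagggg
Ace, 5′ start: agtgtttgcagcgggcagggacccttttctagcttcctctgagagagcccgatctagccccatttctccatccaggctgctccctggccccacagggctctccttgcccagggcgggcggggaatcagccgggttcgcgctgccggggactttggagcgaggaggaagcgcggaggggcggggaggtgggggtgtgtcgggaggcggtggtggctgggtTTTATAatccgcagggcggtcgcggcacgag
Ace, internal start: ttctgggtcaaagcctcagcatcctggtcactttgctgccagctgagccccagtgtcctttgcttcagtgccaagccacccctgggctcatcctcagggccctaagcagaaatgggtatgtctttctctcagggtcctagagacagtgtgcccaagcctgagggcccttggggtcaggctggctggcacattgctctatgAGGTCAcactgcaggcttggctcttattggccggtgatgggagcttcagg
Atp6ap2: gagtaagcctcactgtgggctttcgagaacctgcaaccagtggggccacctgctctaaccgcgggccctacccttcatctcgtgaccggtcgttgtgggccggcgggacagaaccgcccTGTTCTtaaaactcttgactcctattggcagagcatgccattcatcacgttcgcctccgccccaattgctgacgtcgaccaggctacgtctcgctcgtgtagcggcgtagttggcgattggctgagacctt

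Of the 9 genes, 8 had such a sequence, 11 starts in all, and both strands were searched for 7 motifs. The E-box CACGTG, which the Bmal1 partner complex binds, the D-box TTANNTAA and the cyclic AMP element TGACGTCA were found in none of the 11 windows, against 6.02%, 5.43% and 1.55% of 32851 windows of the same length. The half-element AGGTCA bound by REV-ERB receptors, held by 4607 of the 32851 windows, occurred only at the internal Ace start, 50 bases upstream. With the bases before it, that match reads tgAGGTCA, which is also close to the cyclic AMP element TGACGTCA. Binding of any factor there was not tested. The gene-level Ace count does not separate the 5′ and internal starts, and whether kidney RNA used the internal start was not tested. TGTTCT, part of the glucocorticoid response element and found in 16.1% of windows, occurred 131 bases upstream of Atp6ap2, and the C/EBP motif TTNNGCAA (9.56% of windows) 121 bases upstream of Enpep. TATAAA, added after the sequences were seen and present in 12.4% of all windows, lay 30, 29, 31 and 31 bases upstream of Agt, Ren1, the 5′ Ace start and Agtr1b, and 52 bases upstream of Enpep. Windows without a match lack only these letters.

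Each library had 16.9 to 22.3 M assigned reads (median 20.1 M), of which mitochondrial genes took 12.1 to 25.6%. Values are CPM, counts per M assigned reads, after TMM scaling, and tests are edgeR quasi-likelihood F tests over 15637 genes with Benjamini-Hochberg adjusted p-values and a threshold of 0.05. The gene-level Arntl count does not separate the floxed exon and was higher in cKOt libraries (12.9 to 17.4 CPM) than in control libraries (1.09 to 2.64 CPM), with 1 exception. The library labelled STZ-control 2 held 13.4 CPM of Arntl. It held only 22.1 CPM of Dbp, a clock output gene, against 94.1 CPM or more in the other STZ-control libraries. These levels go against its label, as does its Nr1d1 (18.2 CPM), below every STZ-cKOt library (at least 19.6 CPM). Its Nr1d2 and Tef (114.5 and 258.1 CPM) lay above every cKOt library (at most 66.5 and 238.3 CPM). Both lay below the other STZ-control libraries (at least 164.1 and 375.5 CPM). Its Nfil3 (11.97 CPM) lay between the other STZ-control libraries (at most 4.78 CPM) and the STZ-cKOt libraries (at least 18.6 CPM). Another 4 libraries, STZ-control 7 and 8 and PBS-cKOt 1 and 3, stood apart from the rest on the second principal component. No group of markers of kidney cell types was missing: all 13 proximal tubule and all 6 podocyte markers were detected in every group. In whole-kidney RNA, fewer cells of a type and less RNA per cell cannot be told apart.

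Of the 8 members with enough reads to test, 3 differed between cKOt and control in PBS mice, where 23.4% of all tested genes did, and 3 in STZ mice, where 19.6% did. STZ against PBS gave 2 of 8 in control mice (12.3% of all tested genes) and 1 of 8 in cKOt mice (11.6%). The difference between the STZ effects in the 2 genotypes passed for 0 of 8 members by edgeR, against 0.0448% of all genes. Agt, Ren1 and Enpep had an unadjusted p under 0.05 for that difference (edgeR). The share of all tested genes at that looser cutoff was not counted, so no excess among members can be read from it. DESeq2 and limma voom also called 0 members. The median log2 fold change of the 8 was 0.07 and 0.15 in the 2 genotype comparisons and -0.06 and -0.01 in the 2 STZ comparisons, beside medians of all tested genes between -0.01 and 0.00.

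**Figure D1:**
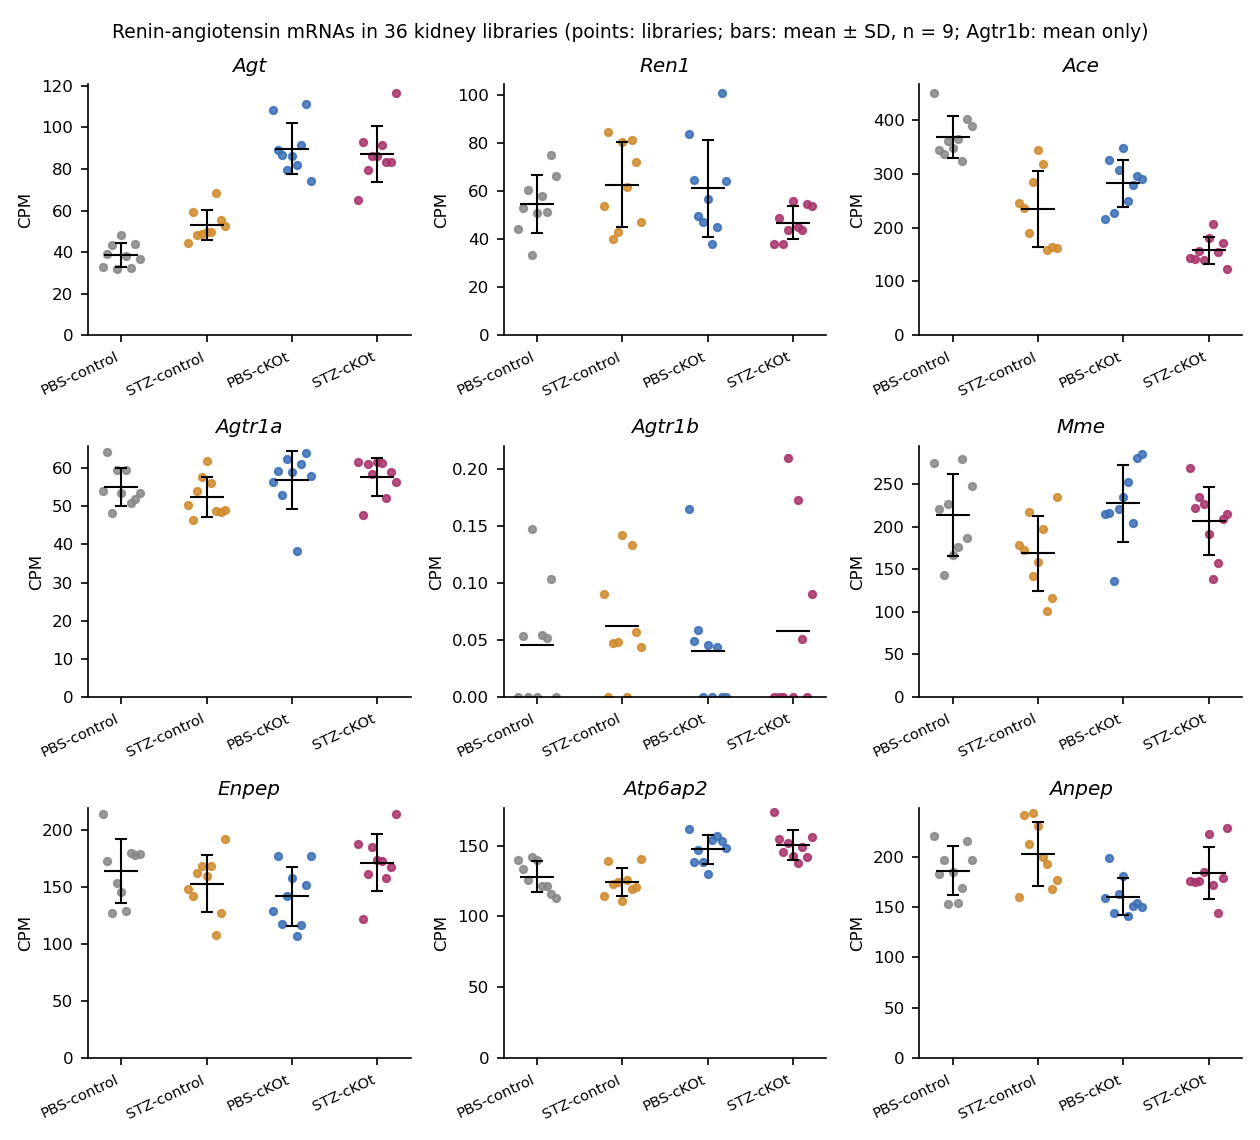
Level of each gene in CPM (vertical axis, from 0) in the 36 libraries by group (horizontal axis). Points are libraries and bars the mean ± SD of 9; Agtr1b has the mean only. Agt separates PBS-control (31.7 to 48.3 CPM) from both cKOt groups, and Ace is lowest in STZ-cKOt (124 to 206 CPM).

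Agt (chr8:124556534-124569706, minus strand, GRCm38, 5 exon blocks) codes for the substrate of the system. It ran from 31.7 to 48.3 CPM (median 38.4) in PBS-control and from 44.6 to 68.6 (median 49.9) in STZ-control kidneys, and from 74.2 to 111 (median 86.5) in PBS-cKOt and from 65.2 to 116 (median 86.3) in STZ-cKOt kidneys. All 9 PBS-cKOt libraries lay above the highest PBS-control library, and 8 of 9 STZ-cKOt libraries above the highest STZ-control library. In PBS mice Agt rose with the deletion by 1.22 ± 0.09 on the log2 scale (SE; n = 9 per group; edgeR adjusted p = 3.75e-13). In STZ mice it rose by 0.72 ± 0.09 (edgeR adjusted p = 1.33e-07).

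STZ raised Agt in control mice by 0.46 ± 0.09 (log2 ± SE, edgeR adjusted p = 0.0010), and 8 of 9 STZ-control libraries exceeded the highest PBS-control library. In cKOt mice the STZ difference was -0.04 ± 0.09, with a 95% interval of -0.23 to 0.14 (adjusted p = 0.837, edgeR). The 2 STZ effects differed by -0.50 ± 0.13 (SE), which did not pass after adjustment over all genes (edgeR adjusted p = 0.198; 0.0753 to 0.599 over the other settings tried). In order of level, PBS-control was below STZ-control, STZ-control below both cKOt groups, and the 2 cKOt groups did not differ beyond their spread. The library labelled STZ-control 2 held 59.1 CPM, inside the range of its group.

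Beside Agt, RNA of other tissues that make it was looked for. The 7 liver markers summed to 110 to 227 CPM per library, of which the carrier protein gene Ttr held 82.9 to 209 CPM, while Ahsg had a median of 0 CPM and Alb one of 4.97 CPM. Of the 5 liver markers tested, 1 rose and 2 fell with the deletion in PBS mice, and 3 rose and 2 fell in STZ mice, where 10.9% and 12.5% of all tested genes rose and fell in PBS mice and 9.52% and 10.1% in STZ mice. With STZ none of the 5 was called in control mice, and 1 rose in cKOt mice. Fat markers, 7 genes of a tissue that also makes Agt, summed per library to 44.7 to 320.2 CPM for PBS-control and 40.8 to 69.7 CPM for STZ-control mice, and to 32.3 to 122 CPM for PBS-cKOt and 50.5 to 74.2 CPM for STZ-cKOt mice. Of these sums Fabp4 held 29.7 to 154 CPM (median 53.4), while each of the other fat markers had a median of 0.97 CPM or less. The brown fat gene Ucp1 reached 107 CPM in PBS-control 8. Of the 6 fat markers tested, 5 fell with STZ in control mice (5.93% of all tested genes fell) and 1 in cKOt mice (5.63%). With the deletion 1 fell in PBS mice and none was called in STZ mice. None of the 6 rose in these 4 comparisons. The part of either tissue in the Agt differences was not tested.

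Ren1 (chr1:133350510-133360325, plus strand) codes for renin, the protease that sets the pace of the cascade. It ran from 33.4 to 75.0 CPM (median 53.2) in PBS-control and from 40.3 to 84.9 (median 61.7) in STZ-control kidneys, and from 37.9 to 101 (median 56.9) in PBS-cKOt and from 38.2 to 56.0 (median 45.0) in STZ-cKOt kidneys. All 4 groups overlapped, and STZ-cKOt was the narrowest, with all 9 libraries below the STZ-control median. The difference between STZ-cKOt and STZ-control was -0.42 ± 0.16 (log2 ± SE), which missed the threshold (edgeR adjusted p = 0.0633). It passed with the DESeq2 Wald test (adjusted p = 0.0478), with edgeR on these 2 groups alone (0.0394) and with the replicate number as a block (0.0391). It missed the threshold under the other 8 alternatives, among them limma voom (-0.28, adjusted p = 0.213), the fit without the library labelled STZ-control 2 (-0.35, edgeR adjusted p = 0.134) and the fit without the 4 libraries apart (-0.32, edgeR adjusted p = 0.192).

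The other Ren1 differences were 0.16 ± 0.16 for the deletion in PBS mice, 0.20 ± 0.16 for STZ in control mice and -0.38 ± 0.16 for STZ in cKOt mice (edgeR adjusted p = 0.503, 0.452 and 0.122). The coefficient of variation of Ren1 among mice of a group was 22.3% in PBS-control, 28.0% in STZ-control and 33.0% in PBS-cKOt, where that of Agt was 14.9, 13.6 and 13.8%. In STZ-cKOt it was 14.4%, against 15.6% for Agt. Some mouse strains carry a second renin gene, Ren2, which had no row under that symbol here, and whether its reads entered the Ren1 count was not tested.

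Atp6ap2 (chrX:12587801-12617049, plus strand) codes for the (pro)renin receptor, which is also an accessory subunit of the vacuolar proton pump. It ran from 113 to 142 CPM (median 126.0) in PBS-control and from 111 to 141 (median 123) in STZ-control kidneys, and from 130 to 162 (median 148) in PBS-cKOt and from 138 to 174 (median 149) in STZ-cKOt kidneys. Control and cKOt ranges overlapped, but all 9 cKOt libraries of each treatment lay above the matching control median. It rose with the deletion by 0.20 ± 0.05 in PBS mice (edgeR adjusted p = 0.0055). In STZ mice the rise was 0.28 ± 0.05 (edgeR adjusted p = 0.00021). The STZ differences were -0.05 ± 0.05 in control mice and 0.03 ± 0.05 in cKOt mice (edgeR adjusted p = 0.632 and 0.811). Atp6ap2 was the least variable member, with a coefficient of variation of 6.88 to 8.50% within groups.

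**Figure D2:**
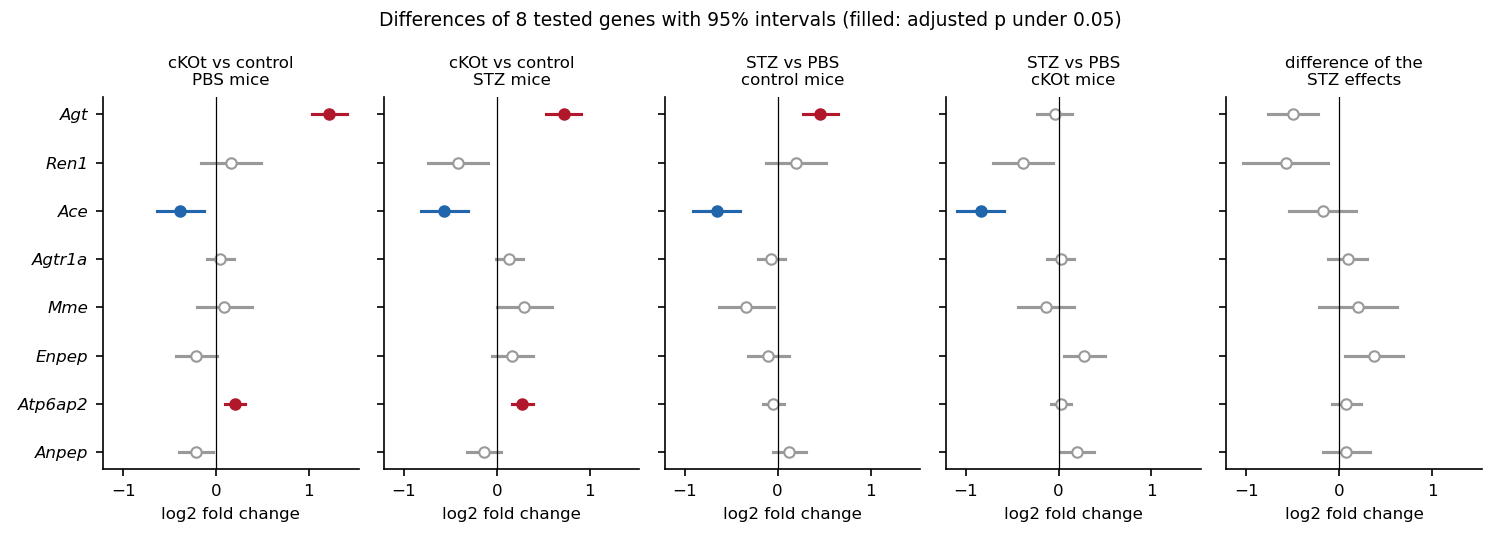
Log2 fold change (horizontal axis) of 8 genes in 4 comparisons and in the difference between the STZ effects, with 95% intervals. Filled points passed an adjusted p of 0.05. Agt lies right of 0 and Ace left of 0 in both genotype panels, and no point is filled in the last panel.

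Ace (chr11:105967945-105989964, plus strand, 25 exon blocks) codes for the enzyme that makes angiotensin II and breaks down bradykinin. It ran from 323 to 449 CPM (median 360.2) in PBS-control and from 158 to 344 (median 236) in STZ-control kidneys, and from 216 to 348 (median 289.7) in PBS-cKOt and from 124 to 206 (median 155) in STZ-cKOt kidneys. STZ-cKOt overlapped neither PBS group, and its highest library was at 206 CPM against 323 CPM in the lowest PBS-control library. STZ lowered Ace by 0.66 ± 0.12 on the log2 scale in control mice (edgeR adjusted p = 0.00044; 8 of 9 libraries below the lowest PBS-control library) and by 0.84 ± 0.13 in cKOt mice (adjusted p = 1.22e-05, edgeR; 9 of 9 below the lowest PBS-cKOt library).

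The deletion lowered Ace by 0.57 ± 0.12 in STZ mice (edgeR adjusted p = 0.00080) and by 0.39 ± 0.12 in those given PBS (edgeR adjusted p = 0.0207). Without the 4 libraries that stood apart, the difference in PBS mice was -0.29 and no longer passed (edgeR adjusted p = 0.062). PBS-cKOt 1 and 3, at 216 and 228 CPM, were the lowest of their group. The STZ effects in the 2 genotypes differed by -0.18 ± 0.18 (adjusted p = 0.624, edgeR). The step from PBS-control to STZ-cKOt, in which 29.5% of all tested genes differed, was -1.22 ± 0.13. Of the groups between them, PBS-cKOt lay above STZ-control by 0.27 ± 0.12 (95% interval 0.02 to 0.52). That difference did not pass the threshold (edgeR adjusted p = 0.109).

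The proximal tubule is a main site of Ace in mouse kidney. Of 13 markers of it, 3 fell with the deletion in PBS mice (12.5% of all tested genes fell) and 7 in STZ mice (10.1%), and none rose (edgeR). With STZ 4 of the 13 fell in control mice (5.93% of all tested genes) and 7 in cKOt mice (5.63%), and none rose. The other 10, 6, 9 and 6 markers did not pass the test. Miox, the first enzyme of inositol breakdown in the proximal tubule, fell in all 4 comparisons, by 0.48, 0.80, 0.43 and 0.75 on the log2 scale. The 12 markers other than Kap, which alone took 11724 to 46836 CPM, summed to 13151 to 15092 CPM with PBS and 10446 to 13851 CPM with STZ in control kidneys, and to 10706 to 14184 and 9506 to 12681 CPM in cKOt kidneys. Of 7 endothelial markers, 1 fell with the deletion in PBS mice (12.5% of all tested genes fell). With STZ in cKOt mice 2 of them rose (6% of all tested genes rose). None was called with the deletion in STZ mice or with STZ in control mice. The 7 summed to 166 to 426 CPM over all libraries. The part of either cell type in the Ace differences was not tested. Gm11651 overlaps Ace exons by 295 bases on the other strand; it held at most 0.086 CPM, and the strand setting of the counting is not given.

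Agtr1a (chr13:30336441-30382867, plus strand) codes for the main type 1 receptor of mouse kidney. It ran from 48.3 to 64.3 CPM (median 53.6) in PBS-control and from 46.5 to 61.9 (median 50.2) in STZ-control kidneys, and from 38.3 to 64.0 (median 58.9) in PBS-cKOt and from 47.6 to 61.7 (median 58.9) in STZ-cKOt kidneys. The groups overlapped in all comparisons. Its 4 differences lay between -0.07 and 0.14 on the log2 scale, and the widest of the 95% intervals ran from -0.22 to 0.08 (STZ in control mice; lowest edgeR adjusted p of the 4 = 0.201).

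Agtr1b, the second type 1 receptor gene of the mouse (chr3:20314473-20367177, minus strand), had 37 reads in all 36 libraries together. A total of 21 libraries had at least 1 read, and the highest had 4. It failed the filter on low counts and was not tested. By group the reads numbered 8 in PBS-control, 7 in PBS-cKOt and 11 in each STZ group. This receptor is known from the adrenal cortex. The 7 adrenal cortex markers summed to 1.06 to 2.98 CPM per library, most of it from Star (0.664 to 2.22 CPM) and Mc2r (0.0547 to 0.902 CPM). Cyp11b2 was at 0 in every library, and Cyp21a1 and Cyp11b1 had a median of 0 and reached 0.633 and 0.226 CPM in STZ-cKOt 9. Their part in the Agtr1b reads was not tested.

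The 3 peptidases of the brush border form the downstream end. Mme codes for neprilysin, which cuts angiotensin I to a shorter vasodilator peptide (chr3:63241537-63386030, plus strand). Its medians were 221 and 173 CPM in control kidneys with PBS and STZ and 221 and 215 CPM in cKOt kidneys, within a full range of 101 to 286. The groups overlapped, and the largest of its 4 differences was -0.34 ± 0.15 for STZ in control mice (log2 ± SE, edgeR adjusted p = 0.127).

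Enpep codes for aminopeptidase A, which turns angiotensin II into angiotensin III (chr3:129269175-129332720, minus strand). Its medians were 173 and 160 CPM in control kidneys with PBS and STZ and 142 and 173 CPM in cKOt kidneys, within a range of 107 to 214. The difference furthest from 0 was 0.27 ± 0.11 for STZ in cKOt mice (edgeR adjusted p = 0.0975). The STZ effects in the 2 genotypes differed by 0.38 ± 0.15 (edgeR adjusted p = 0.367).

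Anpep codes for aminopeptidase N, which acts next on angiotensin III (chr7:79821803-79861059, minus strand). Its medians were 185 and 199 CPM in control kidneys with PBS and STZ and 154 and 176 CPM in cKOt kidneys, within a range of 141 to 244. The deletion gave -0.21 ± 0.09 in PBS mice and -0.14 ± 0.09 in STZ mice (edgeR adjusted p = 0.0770 and 0.295). When all pairs of groups were ordered, PBS-cKOt lay below STZ-control for Anpep (-0.34 ± 0.09, edgeR adjusted p = 0.0036) and above it for Mme (0.43 ± 0.15, edgeR adjusted p = 0.0261), a pair that differs in both genotype and treatment and in which 26.3% of all genes differed.

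Set against exon length, the order of the members changed between groups. In CPM per kilobase of exon, PBS-control held Ace at 69.6 ± 7.40 (SD, n = 9) as the highest, then Atp6ap2 at 48.9 ± 4.16, and Agt was the sixth at 20.4 ± 3.04. In STZ-cKOt, Atp6ap2 was highest at 57.4 ± 4.04, Agt was next at 46.1 ± 7.19 and Ace was the fifth at 29.8 ± 4.72. Agtr1a and Mme stayed at the lower end of the tested members, at 18.8 to 20.7 and 14.6 to 19.7. The length of Mme counts all annotated exons, 11542 bases, so its level per length is low where a kidney transcript uses fewer of them.

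Within groups, some members varied together from mouse to mouse. Of 28 pairs, Agt and Ren1 had the highest correlation of log2 CPM with group means removed (r = 0.61, Spearman rho = 0.60, 36 libraries, permutation adjusted p = 0.00084 and 0.00532; r = 0.60 without the 2 libraries farthest from the Agt median). Mme and Enpep followed at r = 0.59 and rho = 0.56 (permutation adjusted p = 0.00406 and 0.0116; r = 0.50 without 2 libraries). Ace and Agtr1a had r = 0.46 and rho = 0.53, and Agt and Mme r = -0.45 and rho = -0.53 (permutation adjusted p = 0.0423 and 0.014 for both pairs; r = 0.38 and -0.43 without 2 libraries). Enpep correlated at 0.44 with Agtr1a and 0.45 with Anpep, where the Spearman value did not pass (permutation adjusted p = 0.214 and 0.0647); without 2 libraries r was 0.24 and 0.48.

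The library slope of log2 CPM on log2 exon length, a measure of how much a library favours long transcripts, moved with several of these levels. With group means removed, r was 0.67 for Mme, 0.66 for Enpep, 0.48 for Ace and -0.59 for Agt (permutation adjusted p over 16 relations = 0.0004, 0.0004, 0.0149 and 0.00101; Spearman rho = 0.69, 0.67, 0.39 and -0.62, of which that of Ace did not pass, adjusted p = 0.0689). Without the 2 libraries with the most extreme slopes, r was 0.74, 0.68, 0.31 and -0.47. Ace also fell as the mitochondrial share of reads rose (r = -0.59, rho = -0.56, permutation adjusted p = 0.00406 and 0.0048; r = -0.45 without the 2 libraries farthest from the median share). With the slope as a covariate, the edgeR differences of Agt with the deletion were 1.16 in PBS mice and 0.78 in STZ mice, and those of Ace were -0.32 and -0.63, all still past the threshold. For Agtr1a the mitochondrial share gave r = -0.42, and for Mme and Enpep r = -0.58 and -0.51 (permutation adjusted p = 0.0218, 0.00384 and 0.0056), but none of the 3 passed by Spearman's rho (permutation adjusted p = 0.0689, 0.323 and 0.109), and without 2 libraries r was -0.41, -0.42 and -0.37. The part of either measure in the pair correlations was not tested.

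**Figure D3:**
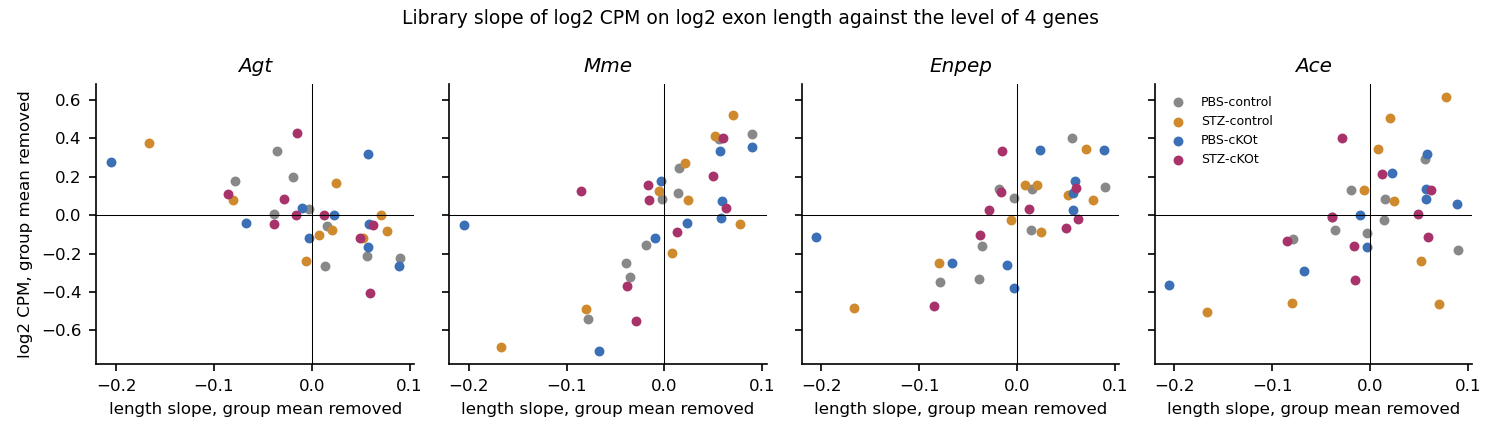
Log2 CPM of Agt, Mme, Enpep and Ace with group means removed (vertical axis) against each library's slope of log2 CPM on log2 exon length with group means removed (horizontal axis). Points are the 36 libraries, coloured by group. Mme and Enpep rise with the slope (r = 0.67 and 0.66) and Agt falls with it (r = -0.59).

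The genes whose variation within groups was most like each member's were found among 11920 tested genes with a mean of at least 2 CPM. For Agt they were Gpi1 (r = 0.82), Eno1 (0.78) and Cltb (0.78), the first 2 being glycolytic enzymes, and Gpi1 also led for Ren1 (0.70). For Ace they were Pi4ka (0.88), Glyctk (0.87) and Mlec (0.85), and for Agtr1a Igfbp3 (0.77), Slc7a7 (0.75) and Fbln5 (0.75). Atp6ap2 was closest to Rnf128 (0.85), Mme to Etnk1 (0.92), Enpep to Rasgrp3 (0.86) and Anpep to Dlst (0.81). These values describe 36 libraries that share depth, length slope and mitochondrial share between genes, and they carry no test.

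Beyond the 9 genes, a list of 28 others that make, cut or receive angiotensins and kinins had 19 tested members. With the deletion 3 rose and 1 fell in PBS mice (10.9% and 12.5% of all tested genes), and 2 rose and 4 fell in STZ mice (9.52% and 10.1%). With STZ none rose, 1 fell in control mice (5.93% of all tested genes) and 2 fell in cKOt mice (5.63%). The list's median log2 fold change lay between -0.06 and 0.05 in these 4 comparisons.

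Mas1, the receptor for a vasodilator angiotensin peptide, was low, at 3.18 ± 1.07 CPM for PBS-control and 3.86 ± 1.35 for STZ-control, 2.20 ± 0.88 for PBS-cKOt and 1.85 ± 0.60 for STZ-cKOt (mean ± SD, n = 9). It fell with the deletion in STZ mice by 1.04 ± 0.23 (edgeR adjusted p = 0.00091), and in PBS mice the difference was -0.53 ± 0.23 (edgeR adjusted p = 0.0953). The type 2 receptor Agtr2 had 55 reads in all libraries together and was not tested, and the mast cell proteases Cma1 and Mcpt4, which can make angiotensin II without ACE, had 12 and 5.

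On the kinin side, Kng1, which codes for kininogen, rose with the deletion by 1.38 ± 0.26 in PBS mice and 1.61 ± 0.25 in STZ mice, from group means of 0.484 and 0.530 CPM in controls to 1.26 and 1.65 CPM in cKOt (edgeR adjusted p = 9.67e-05 and 3.71e-06). Klk1, the tissue kallikrein that frees kinins in the distal tubule, averaged 1127 ± 80.7 CPM for PBS-control, 1165 ± 213 for STZ-control, 1363 ± 307 for PBS-cKOt and 872 ± 245 for STZ-cKOt. It fell with STZ in cKOt mice by 0.64 ± 0.13 (edgeR adjusted p = 0.00052) and with the deletion in STZ mice by 0.42 ± 0.13 (edgeR adjusted p = 0.015). The second of these calls ended without the 4 libraries apart (-0.32, edgeR adjusted p = 0.0602). Rnpep, the gene of aminopeptidase B, and its relative Rnpepl1 fell with the deletion in STZ mice by 0.25 ± 0.06 and 0.32 ± 0.08, and Rnpepl1 also in PBS mice by 0.25 ± 0.08. Prcp, the gene of a prolylcarboxypeptidase, fell with STZ in control mice by 0.30. Outside the naming rule, and named after their values were seen, Kng2 rose with the deletion in both treatments (0.34 and 0.31), and Ece1 rose with it in PBS mice (0.27) and fell with STZ in cKOt mice by 0.27.

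Of 22 genes known to act on renin release or renin gene activity, 21 were tested. Their values are whole-kidney levels, which do not tell the renin cells from the tubule. In PBS mice 3 rose and 1 fell with the deletion, where 10.9% and 12.5% of all tested genes did. In STZ mice 4 rose and 1 fell with it (9.52% and 10.1% of all tested genes). With STZ 4 rose and 1 fell in control mice (6.34% and 5.93% of all tested genes). In cKOt mice 1 rose and 1 fell with STZ (6% and 5.63% of all tested genes). Nt5e, the enzyme that makes adenosine outside cells, rose with the deletion by 1.21 ± 0.13 and 0.97 ± 0.13 in PBS and STZ mice. Vdr, the vitamin D receptor, which represses renin, rose with it by 0.23 ± 0.06 and 0.33 ± 0.06. Ptges, a prostaglandin E synthase, rose by 0.59 ± 0.10 and 0.32 ± 0.10 with the deletion and by 0.44 ± 0.10 with STZ in control mice. Nr1h3, a sterol receptor that acts on the renin gene, fell with the deletion in STZ mice by 0.33 ± 0.07. Sucnr1, the succinate receptor, fell with STZ in control mice by 0.32 ± 0.07. It also fell with the deletion in PBS mice (-0.23, edgeR adjusted p = 0.024) and with STZ in cKOt mice (-0.22, edgeR adjusted p = 0.0488). The call in PBS mice ended without the filter on low counts (edgeR adjusted p = 0.0568), and that in cKOt mice under 6 of 11 alternatives. Ptger4, a receptor for prostaglandin E, rose with STZ in cKOt mice by 0.47 ± 0.12. Named after their values were seen, Ptgs2 rose by 1.01 ± 0.34, Gja5 by 0.38 ± 0.13 and Npr1 by 0.18 ± 0.06 with STZ in control mice, and Pde3b by 0.33 ± 0.11 with the deletion in STZ mice.

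**Figure D4:**
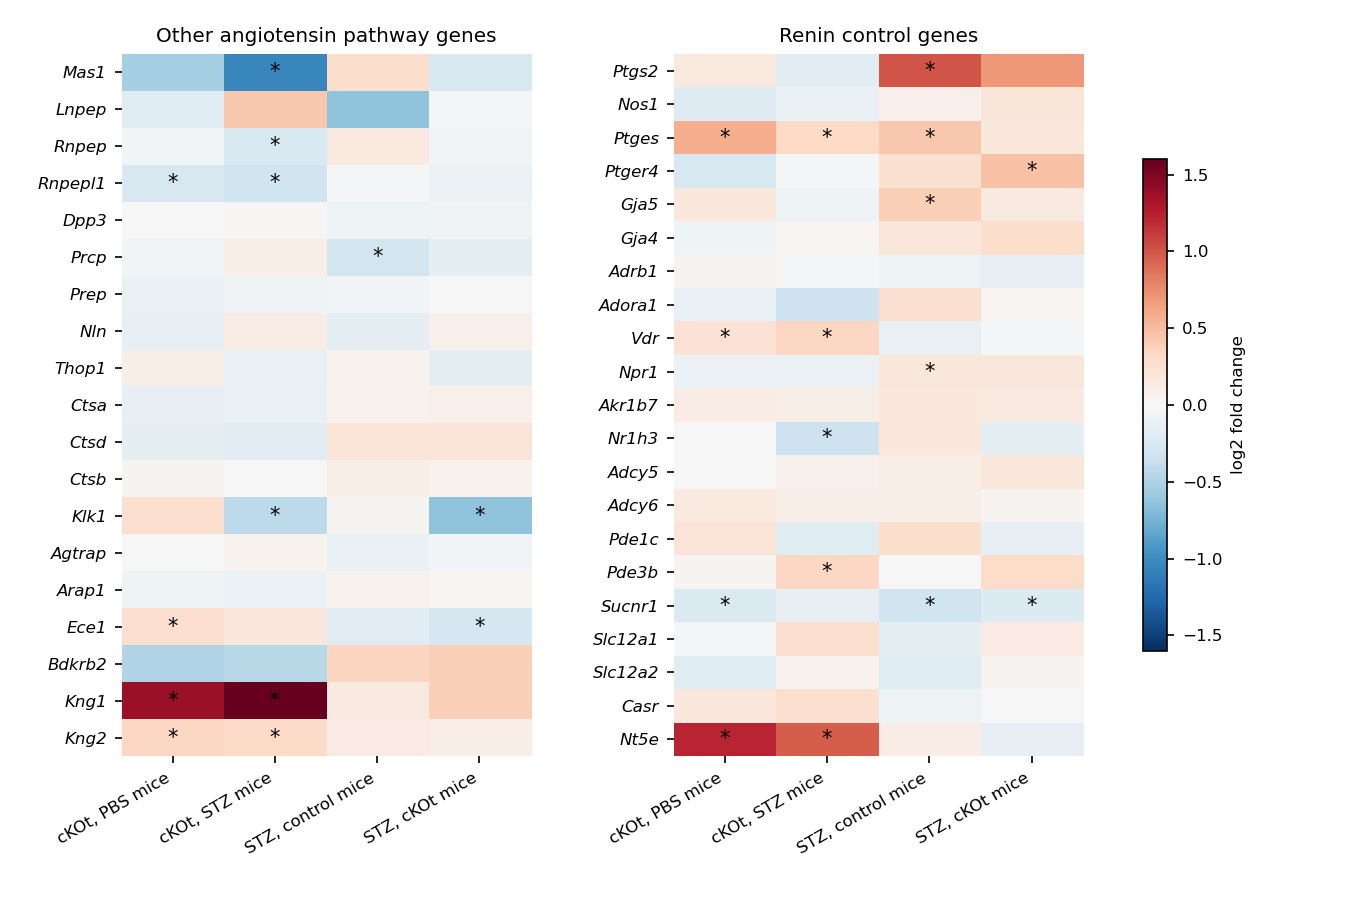
Log2 fold change (colour, red higher and blue lower) of 19 other angiotensin pathway genes and 21 renin control genes (rows) in 4 comparisons (columns). Asterisks mark an adjusted p under 0.05. Kng1 and Nt5e are higher with the deletion in both treatments, and Mas1 is lower with it in STZ mice.

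Of 21 transcription factors known to act on the Agt gene or to belong to the clock output, all tested, 3 rose and 6 fell with the deletion in PBS mice (10.9% and 12.5% of all tested genes) and 3 rose and 4 fell in STZ mice (9.52% and 10.1%). STZ gave 1 rise and 6 falls in control mice (6.34% and 5.93% of all tested genes) and 1 rise and 2 falls in cKOt mice (6% and 5.63%). The list mixes factors that act on Agt with clock output genes, which lie downstream of the deleted Bmal1. No count was made for the factors that act on Agt alone. The factors with the smallest p belonged to the clock output. Nr1d2 and Nr1d1, which code for REV-ERB repressors that bind AGGTCA, fell with the deletion by 2.29 ± 0.10 and 1.75 ± 0.10, and by 1.58 ± 0.16 and 1.42 ± 0.16. Nr1d2 also rose with STZ in cKOt mice by 0.33 ± 0.10 (edgeR adjusted p = 0.0211), a call that ended without the 4 libraries apart (0.29, edgeR adjusted p = 0.0743). Dbp and Tef, activators at the D-box, fell by 2.21 ± 0.19 and 2.15 ± 0.19, and by 1.19 ± 0.08 and 0.90 ± 0.07, while the D-box repressor Nfil3 rose by 3.47 ± 0.26 and 2.61 ± 0.24. Esr1, which codes for an estrogen receptor, fell with STZ by 0.33 in control mice and 0.46 in cKOt mice (edgeR adjusted p = 0.00919 and 0.00032), and the call in control mice ended without the 4 libraries apart (-0.24, edgeR adjusted p = 0.0674). Among factors outside the naming rule, named after their values were seen, Cebpb rose by 0.71 ± 0.15 and 0.51 ± 0.15 and Cebpa by 0.29 ± 0.09 in both treatments, and Nr3c1, the glucocorticoid receptor, fell by 0.36 ± 0.11 with the deletion in PBS mice. The library labelled STZ-control 2 is among the controls of these STZ comparisons; without it the calls of Agt, Ace and Atp6ap2 were kept, with log2 differences for the deletion in STZ mice of 0.74, -0.57 and 0.30 (edgeR adjusted p = 2.0e-07, 0.00141 and 0.00010).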

How the data were processed

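Messenger RNA libraries of 36 whole kidneys were made from 500 ng of total RNA with stranded TruSeq reagents, per the labels' protocols, and samples were grouped by their titles. The authors deposited raw counts of reads per gene. Listed in the submitters' processing notes are STAR 2.5.3a, HTSeq 0.9.1, cutadapt 1.8 and the build GRCm38. Strand and counting options, and the gene annotation, were not given in the sources used. Reads that aligned to several places entered no gene count. Their entry made up 30.9% to 42.8% of the total of all entries per library. Whether it holds each such read once or once per alignment was not given. Symbols, exon lengths and gene positions came from GENCODE M21, and upstream sequences from RefSeq (GRCm38.p6).

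The test was that of edgeR 4.0.16 (R 4.3.3) on the counts: filterByExpr (15637 genes kept), TMM scaling, 1 mean per group over all 36 libraries (32 residual degrees of freedom), quasi-likelihood F tests and Benjamini-Hochberg adjustment within each contrast over all genes, with a threshold of 0.05. Each pairwise contrast sets 9 libraries against 9. Nothing in the labels says how many cages or litters the mice came from, so p-values measure the spread between these samples. Standard errors come from the F statistic. CPM (counts per M reads) use TMM library sizes, and correlations use log2(CPM + 0.5) with group means removed and 100000 permutations. Simulated data for the deletion in PBS mice held 15637 genes, of which 67, 67 and 66 were changed 1.5-, 2- and 4-fold. Of these, 83.6%, 94.0% and 100% were recovered, with 5.13% false calls. Recovery of smaller changes, or of the difference between the STZ effects, was not measured.

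The members and the gene lists were chosen with earlier results of these data known. Of the list genes, 2 are not reported here and enter no list count. All members are named. By rule, at most the 6 tested genes of a list with the smallest adjusted p are named, plus Mas1, Agtr2 and Ren2. For each member, up to 3 genes most like it are named. Other genes, among them Kng2, Ece1, Ptgs2, Gja5, Npr1, Pde3b, Cebpb, Cebpa, Nr3c1 and Miox, are named outside this rule. Alternatives were DESeq2 1.42.0 (size factors and Wald test), limma 3.58.1 voom with quality weights, other filters, only the groups of a contrast, a replicate block, and mitochondrial genes left out. Leaving out the library labelled STZ-control 2 or the 4 libraries apart, and the length slope as a covariate, were chosen after seeing the data.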

Additional observations from a re-analysis of the deposited data

Results flagged for a closer look

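In 32 combinations of a tested member and a group, the highest and the lowest of the 9 libraries were compared with their nearest neighbour, and chance alone sets apart about 1 group in 20. Agtr1a was at 38.3 CPM in PBS-cKOt 6, the lowest of its group, against 53.0 CPM in the next library. Atp6ap2 was at 174 CPM in STZ-cKOt 1, the highest of its group, against 156 CPM in the next.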

How the results depend on the processing

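For each pairwise comparison 11 alternatives were run and 10 for the difference between the STZ effects. The count of members past the threshold was 2 to 3 for the deletion in PBS mice (2 without the 4 libraries apart, where Ace was lost), 3 to 4 for the deletion in STZ mice (4 where Ren1 passed), 2 for STZ in control mice, 1 for STZ in cKOt mice and 0 for the difference of the STZ effects. The number of all genes called in that difference, 7, became 19 with the DESeq2 Wald test, 15 with limma voom and 4 with the length slope as a covariate; the cause was not tested. The member differences that changed sign were not called in any of these fits, and as reported lay between -0.04 and 0.02, except the difference of STZ effects of Mme (0.20): with the length slope, Agt (0.0125) and Agtr1a (-0.0026) for STZ in cKOt mice and the difference of STZ effects of Mme (-0.0166); without the 4 libraries, that of Mme (-0.0318), Anpep in STZ-cKOt against PBS-control (0.00013) and Ren1 in PBS-cKOt against STZ-control (0.0235); and, for the same Anpep difference, 0.0035 with limma voom and 0.0052 without the filter. Without STZ-control replicate 2, that Ren1 difference was 0.0303. Replicate numbers did not pair the samples: of 54 same-numbered pairs of libraries, 14 had deviations correlated above 0.1 (median 0.02). With the replicate number as a block, 3738 genes were called for the deletion in PBS mice in place of 3661 and 3128 in STZ mice in place of 3061; among members it changed only the Ren1 call given in the report. Depth limits Agtr1b, which had at most 4 reads in a library.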
